A study of Mus musculus with 6 samples.

Results

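The genes described here are the 9 regulators of skeletal muscle formation named by their symbols: the paired box factors Pax3 and Pax7, the homeobox factor Six4, the MYOD family factors Myf5, Myod1, Myog and Myf6, the MADS box factor Mef2c, and Mymk, which encodes the membrane protein myomaker needed for myoblast fusion. They were found by exact symbol, and all 9 were among the 50763 genes of the count table. Poly(A) RNA was sequenced from cultured fibroblasts of mouse embryos, a primary culture of mixed mesenchymal cells. The cells were taken at E13.5, in midgestation, from embryos on a C57BL/6J background and were cultured briefly, with no treatment given in the labels. The 3 WT libraries carried unmodified Sod2, and the 3 K68R libraries carried a CRISPR knock-in of an arginine for a lysine in SOD2, the superoxide dismutase of mitochondria, as a mimic of the form that is not acetylated. The cells came from mice that carry the allele, and no Cre driver or transgene is named. Zygosity, embryo sex and the number of embryos behind a library are not given in the sources used here.

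Skeletal muscle forms in steps in which these genes take turns. PAX3 and PAX7 mark progenitors, sine oculis homeobox factors with EYA partners switch on the MYOD family, MYF5 and MYOD1 commit cells to the lineage, and MYOG, MYF6 and MEF2C turn on the genes of the differentiated fibre, while myomaker lets myoblasts fuse. PAX3 also acts in neural crest, and MEF2C in heart, endothelium, bone and neurons. Embryonic fibroblast cultures come from tissue that includes muscle precursors, so a low level of these transcripts can be present in them.

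Library totals ran from 26200088 to 40691447 read pairs assigned to genes. In 1 library, 3 counts equal 0.0737 to 0.115 CPM of the raw total. Elsewhere CPM is the count scaled to a common library size (TMM), and TPM is the count per exonic base scaled to the same sum in every library. Sod2 itself was at 45.6 to 48.9 CPM in the K68R libraries and at 69.0 to 71.8 CPM in the WT libraries, and the counts cannot show the edited codon. All 10 fibroblast markers listed, among them Vim and Col1a2, were present in every library. Their sum was 17970 to 18020 CPM in K68R and 7551 to 7662 CPM in WT, with 5 genes higher, 4 lower and 1 not called. The higher sum was mostly Fn1 (mean 7154 against 387.5 CPM), Col1a1 (2445 against 165.3) and Col1a2 (2408 against 611.1). With offsets for length and GC content, described below, their log2 fold changes of 4.207, 3.887 and 1.978 were 2.695, 1.424 and 0.453. With the longest transcript as length, Col1a2 was at -0.01. Pdgfrb, also called higher, turned in sign with offsets, from 0.29 to -1.28. The 4 lower genes were Thy1, Pdgfra, Dcn and Lum. Libraries of a genotype were very alike, the biological coefficient of variation common to all genes being 2.19%, and the labels call them biological replicates without naming separate embryos or cultures. The p-values here speak of the spread among these 6 libraries, part or all of which can be technical. In whole cultures, fewer cells of a type and less RNA per cell cannot be told apart.

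Every member that could be tested was higher in K68R. Of the 9 genes, 8 passed the filter on low counts, and all 8 were called higher (edgeR, Benjamini-Hochberg adjusted p below 0.05), as were 40.8% of the 16730 genes tested; 81.4% of those genes were called in either direction. The 3 K68R values lay above the 3 WT values for each of the 8, and for 41.3% of all genes tested. Against a bound of 1.5-fold, 8 of 8 were called higher, compared with 26.1% of all genes. At least 2-fold increases were seen in 7 of 8, and in 22.1% of all genes. The median log2 fold change of the 8 was 2.60, and that of all genes tested was -0.0071. Pax7, which had no WT count, stands at the top of the 8 with its fitted value and with its lower bound alike, so the median is 2.60 either way. Members with few counts passed the filter through the K68R libraries alone, so their place among the 8 is not independent of their direction. The same holds for genes with few WT counts in the lists described below. The ninth gene, Myf6, had too few counts to be tested.

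**Figure D1:**
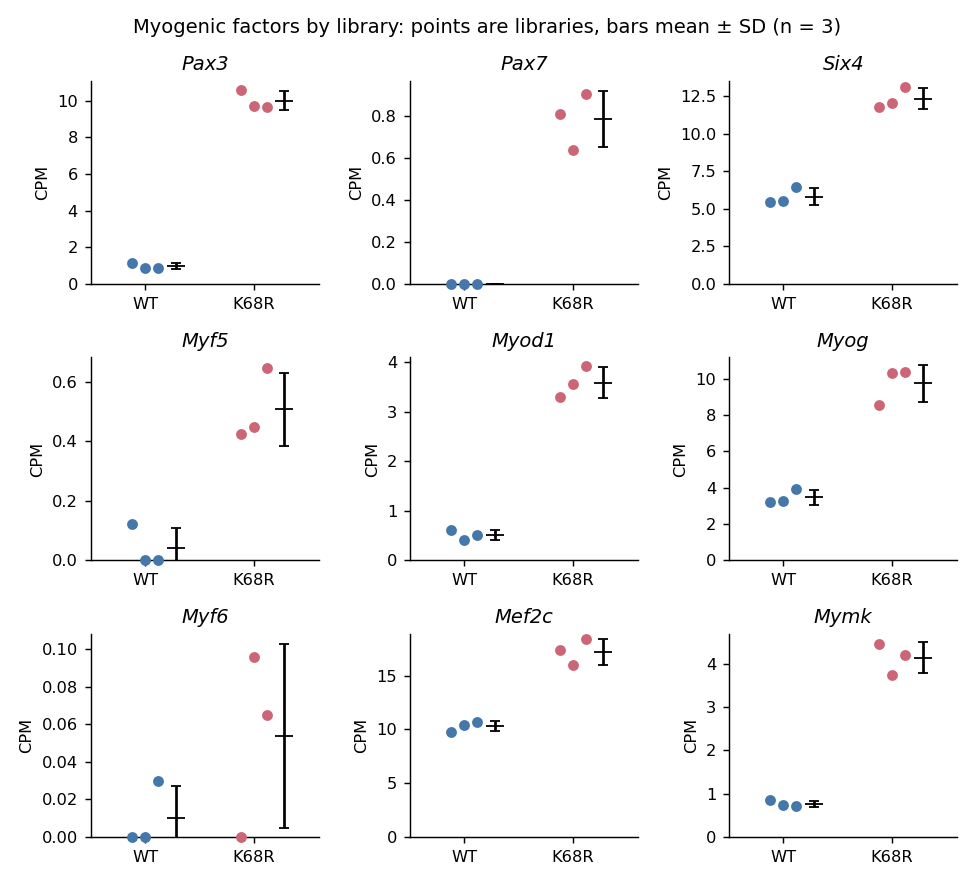
Level of each of the 9 genes in CPM (vertical axes, each starting at 0) in the 3 WT and 3 K68R libraries. Points are libraries and bars show the mean ± SD (n = 3), cut off at 0. The genotypes do not overlap for any gene except Myf6, and Pax7 is at 0 in all 3 WT libraries.

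Both PAX genes of muscle progenitors were higher in K68R. Pax3, a paired box factor of the dermomyotome and the neural crest (chromosome 1, 78077904 to 78173773, minus strand, build mm39), was at 10.6, 9.71 and 9.66 CPM in K68R and at 1.16, 0.863 and 0.895 CPM in WT. The lowest K68R library thus stood far above the highest WT library. The log2 fold change of K68R over WT was 3.33 with a standard error of 0.139 (edgeR, adjusted p = 3.07e-33), and summed counts of 874 and 105 gave a 10.04-fold ratio. Its exact binomial 95% bounds, 8.20 and 12.4, like all such bounds and floors here, reflect counting error alone.

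Pax7, the factor that later marks satellite cells (chromosome 4, 139464357 to 139560841, minus strand), was detected in K68R only at a low level. It had 21, 20 and 28 counts in the K68R libraries, or 0.814, 0.641 and 0.907 CPM, and no count in any WT library. The exact binomial 95% lower limit of 69 counts against 0 put the K68R level at least 21.97-fold higher, and set against a floor of 3 counts over the 3 WT libraries together, not per library, the ratio was 27.8. The test called the gene higher (edgeR, adjusted p = 1.52e-12), while its fitted log2 fold change depends on the prior count and gives no bound. Another annotated gene, Gm46873, shares 6.01% of the exonic bases of Pax7, and reads there could not be assigned to either gene.

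Six4, one of the sine oculis homeobox factors that act upstream of the MYOD family (chromosome 12, 73146383 to 73160201, minus strand), changed less. Its level was 11.8, 12.1 and 13.1 CPM in K68R and 5.46, 5.50 and 6.47 CPM in WT. The 2 ranges did not overlap, and the difference was 1.09 on the log2 scale with a standard error of 0.0890 (edgeR, adjusted p = 4.28e-18). In WT, Six4 came after Myog by TPM, at 1.88 ± 0.200 (SD, n = 3).

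Of the other genes of the PAX, sine oculis, EYA and DACH network, a list of 18, 13 could be tested, and 12 of them were called higher and none lower (edgeR), beside 40.8% higher among all genes. Their median log2 fold change was 1.90, against -0.0071 for all genes tested. Six2, a sine oculis factor of kidney and connective tissue progenitors, stood at 24.1 ± 1.61 CPM against 1.65 ± 0.0840 CPM in WT (SD, n = 3), or 14.6-fold higher, and its log2 fold change of 3.87 was 2.97 with offsets for length and GC content. Eya1, a phosphatase that partners these factors, was 3.21-fold higher, and Dach1, one of their cofactors, 6.45-fold higher. Eya3, chosen after its values were seen as the 1 tested gene that was not called, had a level of 61.4 ± 1.81 CPM in K68R against 62.6 ± 1.99 CPM (SD, n = 3), a log2 difference of -0.03 that was -0.36 and called lower with offsets for length and GC content (edgeR). With those offsets 10 genes of the list were higher, 1 was lower and 2 missed the threshold, around a median of 1.07.

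Commitment to the muscle lineage rests on MYF5 and MYOD1, basic helix-loop-helix factors that bind the E-box sequence. Myod1 (chromosome 7, 46025898 to 46028516, plus strand) was at 3.29, 3.56 and 3.92 CPM in K68R and at 0.606, 0.416 and 0.507 CPM in WT, with no overlap. The log2 fold change was 2.79 with a standard error of 0.213 (edgeR, adjusted p = 1.99e-19). Summed counts of 317 and 55 gave a 6.95-fold ratio, with an exact binomial 95% interval from 5.21 to 9.44.

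Myf5 and Myf6 are neighbours on chromosome 10, both on the minus strand, with 5921 bases between them, and both were near the limit of detection. Myf5 (107318769 to 107322787) had 11, 14 and 20 counts in K68R, or 0.426, 0.449 and 0.648 CPM. In WT it had 5 counts in replicate 1 and none in the other libraries. The ratio of summed counts, 45 against 5, was 10.9 with an exact binomial 95% interval from 4.33 to 35.05, and the test called it higher, with a log2 fold change of 3.34 and a standard error of 0.614 (edgeR, adjusted p = 1.49e-06). This fitted value rests on WT replicate 1: without it the WT counts are 0, the K68R level is at least 8.63-fold higher by the exact binomial 95% lower limit and 11.1-fold above a floor of 3 counts over the 2 remaining libraries together, and the fitted log2 fold change is 6.97. Without WT replicate 2 or 3 the log2 fold change was 2.85 or 2.81.

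Myf6, also called MRF4, a factor of late differentiation (107328709 to 107330584), had 0, 3 and 2 counts in K68R and 0, 0 and 1 in WT. The ratio of 5 counts to 1 was 6.03, with an exact binomial 95% interval from 0.675 to 285, so that no difference was detectable at this depth. With no filter on low counts its adjusted p was 0.285 (edgeR), and DESeq2 gave 0.377.

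Myog, the myogenin factor that starts terminal differentiation (chromosome 1, 134217742 to 134220286, plus strand), had the highest level per length of the 9 genes in both genotypes. It was at 8.52, 10.3 and 10.4 CPM in K68R and at 3.23, 3.26 and 3.94 CPM in WT. Every K68R library stood above every WT library, and the log2 fold change was 1.49 with a standard error of 0.109 (edgeR, adjusted p = 2.74e-20). Of the MYOD family genes tested, Myog had the smallest fitted fold change, and the difference in fold change between the family members was tested only through the Myog to Myod1 ratio given further on.

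The regions upstream of Myog and Mef2c are shown because motifs of 3 of the factor families measured here lie in each, with Myf5 beside them as a gene of the MYOD family whose window held none. All are the 250 bases before the RefSeq start site, 5′ to 3′ on the gene's strand, from build GRCm38.p6, at chr1:134289754-134290003 (plus strand) for Myog, chr13:83503784-83504033 (plus strand) for 1 of the 3 RefSeq starts of Mef2c and chr10:107486135-107486384 (minus strand) for Myf5. Capitals mark matches on either strand to the E-box CANNTG, to TCAGGTT, the MEF3 motif that sine oculis factors bind, and to the MEF2 core TANNNNTA where all 4 N are A or T.
Myog: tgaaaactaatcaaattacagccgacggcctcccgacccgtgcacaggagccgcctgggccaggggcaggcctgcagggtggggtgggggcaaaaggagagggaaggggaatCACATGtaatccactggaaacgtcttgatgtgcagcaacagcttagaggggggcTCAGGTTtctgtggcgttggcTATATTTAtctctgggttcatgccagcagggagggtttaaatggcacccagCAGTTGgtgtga
Mef2c: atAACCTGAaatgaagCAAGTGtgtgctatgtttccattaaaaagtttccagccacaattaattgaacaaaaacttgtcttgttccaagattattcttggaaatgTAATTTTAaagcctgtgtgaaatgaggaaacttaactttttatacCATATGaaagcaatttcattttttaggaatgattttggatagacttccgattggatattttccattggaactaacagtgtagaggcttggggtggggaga
Myf5: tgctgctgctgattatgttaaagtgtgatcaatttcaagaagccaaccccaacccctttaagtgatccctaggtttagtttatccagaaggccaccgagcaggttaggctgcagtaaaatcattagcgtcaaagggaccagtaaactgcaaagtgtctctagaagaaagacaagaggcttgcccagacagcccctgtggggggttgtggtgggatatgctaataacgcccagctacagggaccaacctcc

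The Myog window held an E-box CACATG 138 bases before the start site and an E-box CAGTTG 12 bases before it, a MEF3 motif 84 bases before it and a MEF2 core TATATTTA 63 bases before it. The 3 motifs do not overlap one another there. Of 32851 RefSeq windows of the same length, 66.2% held an E-box and 3.49% the MEF3 motif. The MEF2 core with only A or T inside was in 8.56% and all 3 motifs were in 0.225%. An E-box alone is thus common and the combination is not. The Myog and Mef2c windows were picked for holding all 3, so these shares are no test of them. The Mef2c window shown held all 3 as well, with E-boxes CAAGTG and CATATG 234 and 100 bases before the start site, the MEF3 motif on the other strand (AACCTGA) 248 bases before it and a MEF2 core TAATTTTA 145 bases before it, while the windows of its other starts did not. The Myf5 window held none of the 3 (its TAGGTTTA matches only the core with any letter at N, which 34.4% of windows hold). These matches are letters in a window and do not show binding. Entries were found for 5 of the 9 genes, Pax7 and Six4 being the others, and Pax3, Myod1, Myf6 and Mymk had none. The Pax7 window held none of the 3 motifs. A Six4 window held only the MEF3 motif, on the other strand 97 bases before the start site.

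By TPM, the MYOD family differed in amount, and its shares did not overlap between genotypes for Myog and Myod1. The summed level of Myf5, Myod1, Myog and Myf6 was 20.03, 23.8 and 24.7 TPM in K68R and 5.50, 5.25 and 6.47 TPM in WT. Myog made up 74.9%, 76.3% and 74.5% of this sum in K68R and 85.5%, 90.8% and 90.0% in WT. Myod1 took 23.1%, 21.1% and 22.5% in K68R and 12.8%, 9.24% and 9.25% in WT. The ratio of Myog to Myod1 in TPM was 3.39 ± 0.202 in K68R and 8.74 ± 1.80 in WT (SD, n = 3), and the 2 ranges did not overlap. A two-sided exact permutation test over 20 assignments gave p = 0.1, and no smaller value is possible with 3 libraries in each genotype. Offsets for length and GC content narrowed the gap between the fold changes of these genes, since the log2 fold change of Myog went from 1.49 to 1.73 and that of Myod1 from 2.79 to 2.42.

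**Figure D2:**
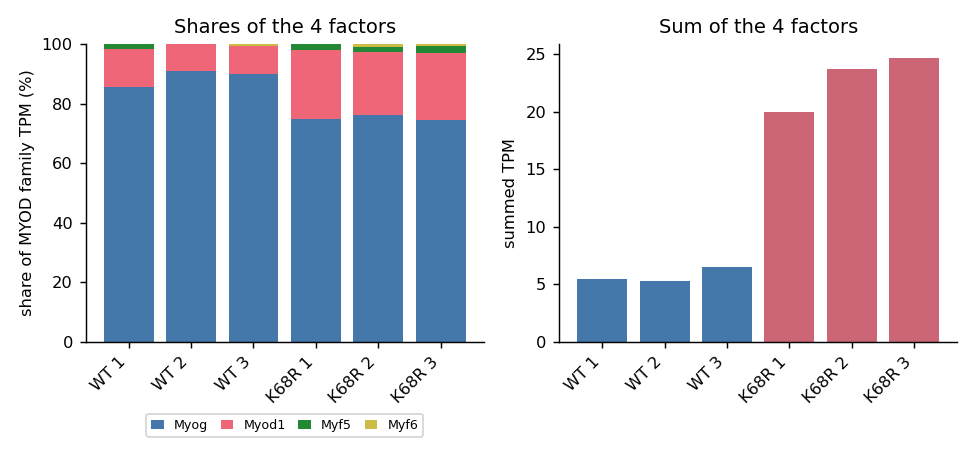
Left, share of Myog, Myod1, Myf5 and Myf6 in their summed TPM (percent) in each library; right, the summed TPM, with WT libraries in blue and K68R libraries in red. Myog takes 85.5% to 90.8% of the sum in WT and 74.5% to 76.3% in K68R, while the sum is 5.25 to 6.47 TPM in WT and 20.03 to 24.7 TPM in K68R.

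Mef2c, a MADS box factor that works with the MYOD family on muscle genes (chromosome 13, 83652136 to 83815197, plus strand), had the smallest fold change of the tested members. Its level was 17.4, 16.0 and 18.4 CPM in K68R and 9.80, 10.5 and 10.7 CPM in WT, without overlap. The log2 fold change was 0.74 with a standard error of 0.0720 (edgeR, adjusted p = 5.94e-15). The annotation used for counting gives Mef2c 56353 exonic bases in all its isoforms together, whereas its longest GENCODE transcript has 6277, so that its TPM is low by construction and its rank by length has little meaning. The call depended on which length was used to correct for length and GC content: with offsets on summed exonic bases the log2 fold change was -0.01 (edgeR, adjusted p = 0.949), and with the longest transcript it was 0.85.

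MEF2 factors and the E proteins act as partners of the MYOD family, and a list of 8 partners held 6 such genes other than Mef2c and the TEAD cofactors Vgll2 and Vgll3. Of the 8 genes 7 were tested. In this list 6 were called higher and 1 lower (edgeR), and with offsets for length and GC content 4 were higher and 3 lower. The shares higher among all genes were 40.8% and, with offsets, 33.5%. Mef2d had 107 ± 5.42 CPM against 21.7 ± 1.77 CPM in WT (SD, n = 3), a 4.91-fold increase with a log2 fold change of 2.30 that was 0.42 with offsets. Mef2a was at 117 ± 3.19 against 99.8 ± 3.33 CPM, a log2 fold change of 0.23. Tcf3, which encodes the E proteins E12 and E47, was 2.93-fold higher, but its sign turned with offsets, to -0.31 (log2). Tcf12, the E protein HEB, was 1.37-fold lower, while Vgll3 was 1.43-fold and Vgll2 4.66-fold higher, the latter with a log2 fold change of 2.22 that was 1.75 with offsets. Vgll2 was named after its values were seen. Mef2b had no count in any library. Another annotated gene, Mef2bl, shares 93.7% of its exonic bases, and reads there could not be assigned to either gene.

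Mymk (chromosome 2, 26951648 to 26962173, minus strand) is expressed in myoblasts that are about to fuse. It was at 4.46, 3.75 and 4.21 CPM in K68R and at 0.849, 0.736 and 0.716 CPM in WT. Again the genotypes stood clearly apart, with a log2 fold change of 2.41 and a standard error of 0.187 (edgeR, adjusted p = 3.80e-19). Mymx, which encodes the partner fusion protein myomixer, averaged 1.36 ± 0.228 CPM in K68R against 0.315 ± 0.0910 CPM (SD, n = 3). It too was called higher, by 2.11 on the log2 scale with a standard error of 0.313 (edgeR, adjusted p = 9.57e-09).

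The fusion and adhesion list of 14 genes held 11 that could be tested, and 1 symbol, Kirrel, was not matched. In it 8 genes were higher, 1 was lower and 2 missed the threshold (edgeR), beside 40.8% higher among all genes, and the median log2 fold change was 1.51. With offsets the split was 5 higher, 2 lower and 4 not called, around a median of 0.0541, beside 33.5% higher among all genes. Dysf, the membrane repair protein dysferlin, was 14.8-fold higher (log2 1.76 with offsets), and Cdh2, N-cadherin, was 2.85-fold higher (log2 1.51, and 0.79 with offsets). Itga7, the laminin receptor subunit of muscle, was 3.32-fold higher and Myof, myoferlin, 1.24-fold higher, but both turned in sign with offsets, to -0.81 and -0.06 (log2).

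By level per length, the order of the 9 genes was not the same in the 2 genotypes. In K68R, Myog led at 17.2 ± 1.88 TPM, followed by Mymk at 7.25 ± 0.625 and Pax3 at 6.74 ± 0.331, whose ranges overlapped, and by Myod1 at 5.06 ± 0.463 and Six4 at 4.80 ± 0.289, whose ranges also overlapped (SD, n = 3). In WT, Myog led at 5.09 ± 0.627 TPM, followed by Six4, Mymk at 1.11 ± 0.0981, and Myod1 at 0.596 ± 0.110 and Pax3 at 0.546 ± 0.0901, which overlapped. Mef2c, Myf5, Myf6 and Pax7 came last in both, with Mef2c at 0.800 TPM in K68R and 0.397 TPM in WT. The place of Mef2c rests on its 56353 summed exonic bases, against 6277 in its longest transcript, so its rank in either order has little meaning. By mean TPM over the 6 libraries, Myog lay at percentile 52.9 of the genes tested and Pax3 at percentile 34.7.

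Fold changes in this data set varied with exonic length and GC content over all genes, so the members were fitted again with offsets that remove that trend in each library. Their GC content ran from 40.8% for Mef2c to 58.9% for Myod1. With offsets 7 of the 8 tested members were called higher and none lower (edgeR), beside 33.5% higher among the 15586 genes with a GC value, and the median of the 8 was 2.53 (log2). Pax3 had a log2 fold change of 3.38 with offsets and Mymk one of 2.64, Six4 of 1.11, Myog of 1.73 and Myod1 of 2.42. Mef2c was the exception already given.

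**Figure D3:**
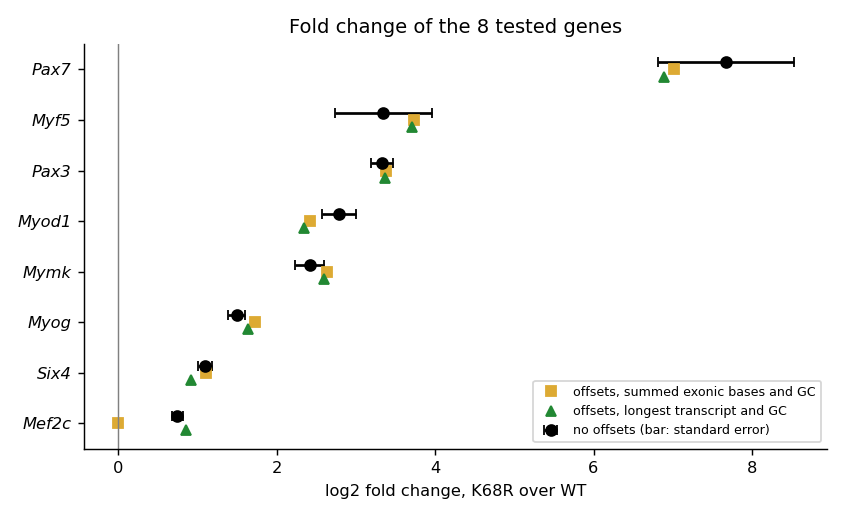
Log2 fold change of K68R over WT (horizontal axis) for the 8 tested genes, without offsets (circles, bar: standard error) and with offsets for length and GC content by 2 measures of length (squares and triangles). Mef2c, at 0.74, -0.01 and 0.85, lies near 0 with one of the offsets, and the fitted value of Pax7, with no WT count, depends on the prior count and is no bound.

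Transcripts of the contractile and synaptic apparatus, which the MYOD family and MEF2C are known to drive, were higher too. Of 34 skeletal muscle products 30 were tested, 29 were called higher and none lower (edgeR), 26 of them at least 2-fold, with a median log2 fold change of 1.53. Among all genes tested, 40.8% were higher and 22.1% at least 2-fold higher. With offsets 27 were higher and none lower, with a median of 1.69, beside 33.5% higher among all genes. Some, such as Myh7 with 8 WT counts in all and Cacna1s with 12, passed the filter through the K68R libraries alone. Their being tested was thus not independent of their direction. Earlier work on these data had already shown muscle markers to be higher, so the count of muscle products called higher is no separate support. Ttn, the giant sarcomere spring titin, was at 24.99 ± 0.418 against 1.54 ± 0.174 CPM, and Neb, the thin filament ruler nebulin, at 17.6 ± 0.684 against 0.937 ± 0.342 CPM (SD, n = 3). Their log2 fold changes of 4.03 and 4.20 were 2.75 and 3.32 with offsets on exonic bases and 0.43 and 2.42 with the longest transcript. Des, the muscle intermediate filament desmin, was 2.57-fold higher, its log2 fold change of 1.36 being 0.60 with offsets. Myh3, the embryonic myosin heavy chain, was the gene of this list with the smallest p, with a log2 fold change of 5.64 and of 4.41 with offsets. Of this list, 1 tested gene was not called and 4 genes were not tested. Genes of mature fibres were also among those called higher. Myh1 had 79 counts in K68R and 6 in WT, and the log2 fold change of Tnnt3 was 2.04, or 2.46 with offsets. Tnni2, the fast fibre troponin I, averaged 0.722 ± 0.0888 CPM in K68R against 0.745 ± 0.136 CPM, and the 2 ranges overlapped. Ckm, muscle creatine kinase, had 5 counts against 3, a ratio of 2.01 with an exact binomial 95% interval from 0.391 to 12.95, which leaves a rise or a fall undetectable at this depth. Mylpf had 17 counts in K68R and 32 in WT, but another annotated gene shares 74.1% of its exonic bases. Myh1, Tnnt3, Tnni2, Ckm and Mylpf were chosen after their values were seen.

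**Figure D4:**
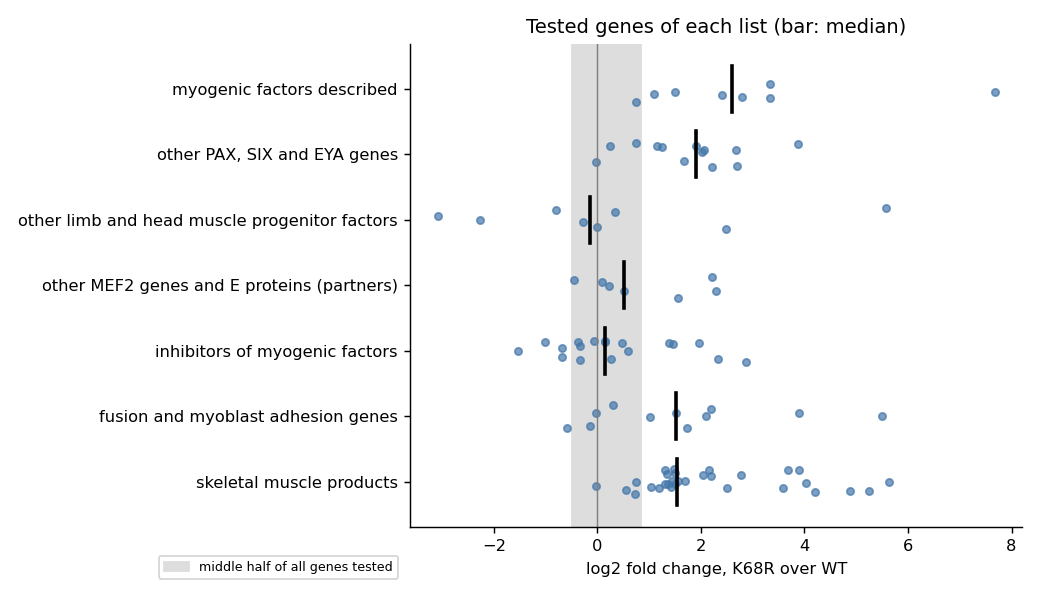
Log2 fold change of K68R over WT (horizontal axis) of each tested gene of 7 lists, with a bar at the list's median and a grey band from the 25th to the 75th percentile of all genes tested, -0.50 to 0.84. The medians run from -0.14 for other limb and head progenitor factors to 2.60 for the myogenic factors described, whose highest point is Pax7, a fitted value against no WT count.

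Inhibitors of myogenic factors moved in both directions, as did the genes tested in general. All 18 were tested, with 9 higher, 6 lower and 3 not called (edgeR), and with offsets 7 higher and 9 lower. Of all 16730 genes tested, 6833 were higher and 6780 lower, and with offsets 5229 and 6596 of 15586. Id1 and Id3, which sequester E proteins, were 2.03-fold and 1.602-fold lower, at 114 ± 2.63 against 231 ± 1.17 CPM and 233 ± 2.203 against 373 ± 4.97 CPM (SD, n = 3), and with offsets their log2 fold changes of -1.02 and -0.68 were -0.64 and -0.24. Twist2, a helix-loop-helix factor of dermal cells that blocks MYOD1, was 2.90-fold lower, with a log2 fold change of -1.54 and of -1.15 with offsets. Hdac5, a class II deacetylase that holds MEF2 factors inactive, was 7.32-fold higher, but its log2 fold change of 2.87 was 0.20 with offsets on exonic bases and -0.41 with the longest transcript.

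Other factors of limb and head muscle progenitors, a list of 10 with 8 tested, showed no common direction, with 3 higher, 3 lower and 2 not called (edgeR). Of all genes tested, 40.8% were called higher and 81.4% in either direction. Meox2, a homeobox factor of limb muscle, was 8.44-fold lower, with 1.47 ± 0.152 against 12.5 ± 0.762 CPM, and Tcf21, a factor of head muscle and of connective tissue fibroblasts, was 4.80-fold lower. Met, the receptor that migrating limb progenitors need, had 46.7 ± 0.0522 CPM against 81.5 ± 2.04 CPM in WT (SD, n = 3), a 1.74-fold decrease. Tbx1, a T-box factor of pharyngeal muscle, was 5.58-fold higher, with a log2 fold change of 2.48 that was 0.54 with offsets. Lbx1, the factor of migrating limb precursors, was not tested, with 19 counts in K68R and 3 in WT, and was chosen after its values were seen.

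Several lists of cell type markers moved with genotype, and their part in the results was not tested. Their counts of genes called stand beside 40.8% higher and 81.4% called in either direction among all genes tested. The 8 skeletal muscle fibre markers summed to 145 to 146 CPM in K68R and 44.0 to 45.5 CPM in WT, with 6 of 6 tested genes higher. All 8 are also in the list of skeletal muscle products, so this count repeats part of that list. Cardiomyocyte markers, which share MEF2C as a regulator, summed to 15.9 to 18.3 against 4.16 to 5.10 CPM, with 6 of 7 tested genes higher. Neural crest and Schwann markers, where PAX3 is also expressed, overlapped between genotypes in their sum, at 13.6 to 15.7 against 12.7 to 14.4 CPM, with 3 higher and 1 lower of 5. Melanocyte markers were at 3.598 to 4.34 against 4.88 to 5.91 CPM, with 1 of 2 tested genes lower, and Dct, Tyr, Tyrp1 and Mlana had at most 3 counts in any library. Endothelial markers, another site of Mef2c expression, summed to 96.2 to 98.0 against 25.2 to 27.6 CPM, with 2 of 5 tested genes higher. These were Kdr, which made up most of the sum and was 4.46-fold higher, and Emcn, 2.33-fold higher, while Pecam1, Cdh5 and Tek were not called, Cldn5 had no count in K68R and Tie1 had 1 to 3 there. Neuronal markers were at 64.2 to 65.9 against 31.3 to 32.1 CPM, with 2 of 3 tested genes higher and 1 lower, and chondrocyte markers at 158 to 165 against 10.3 to 11.2 CPM, with 3 of 4 higher. The chondrocyte sum in K68R was mostly Col2a1, at a mean of 133.6 against 0.588 CPM in WT. Of 6 smooth muscle markers 4 were higher and 2 lower, with a median log2 fold change of 1.48. Myh11 was 10.3-fold and Smtn 9.23-fold higher, and their log2 fold changes of 3.37 and 3.21 were 2.23 and 0.49 with offsets. The 2 lower genes, Acta2 and Tagln, were not called with offsets. Another annotated gene shares 85.8% of the exonic bases of Tagln. The sum of the 6 markers, mostly Acta2 at 4671 against 5311 CPM, was 5000 to 5064 CPM in K68R and 5398 to 5433 CPM in WT. Macrophage markers summed to 46.6 to 49.2 and 52.2 to 53.0 CPM, with 1 higher and 3 lower of 6, and erythroid markers to at most 1.09 CPM in any library.

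Genes with a profile most like that of Myog, the most abundant MYOD family gene, were found by the distance between centred log2 CPM profiles over the 6 libraries. The nearest was Tbx20, a T-box factor of heart, at a distance of 0.124, with 6.40 ± 0.780 CPM in K68R against 2.40 ± 0.332 CPM (SD, n = 3). Rap1gap2, Unc13a and Ficd followed at 0.158, 0.163 and 0.166. With only 2 genotypes, such likeness mostly reflects a similar fold change, and with offsets the log2 fold change of Tbx20 was 1.57, of Rap1gap2 0.0083, of Unc13a -0.39 and of Ficd 0.77.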

How the data were processed

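RNA of 3 K68R and 3 WT libraries was made into stranded poly(A) libraries, per the labels' protocols. The submitters' processing notes name HISAT2 2.2.1, featureCounts 2.0.6 and mm39. The table the authors deposited holds unnormalised counts, in read pairs over the exons of each gene, and per the file headers featureCounts used the RefSeq annotation with no strand option and no multi-mapped reads, so overlapping genes on opposite strands lose reads. Exonic lengths come from the same table.

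Counts were fitted for all genes in R 4.3.3 with edgeR 4.0.16 (filterByExpr, TMM, robust quasi-likelihood F test, Benjamini-Hochberg over 16730 genes, threshold 0.05); standard errors are the fold change divided by the root of F. The fit was tested on simulated data. Count ratios have exact binomial 95% intervals for counting error only. Alternatives used DESeq2 1.42.0, limma 3.58.1 and other settings. Offsets for length and GC content used mgcv 1.9.3 and GENCODE M21 transcripts joined by symbol (93.2% of tested genes). Chi-square per gene between libraries of a genotype was 1.89 to 2.32, so replicates differed by more than sampling noise. That excess does not show separate embryos or cultures. Each library was counted as a replicate because the labels call them biological replicates.

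The members and lists were chosen with earlier results of these data known. Named were all 9 members, Sod2, Mymx, the MEF2 genes, the 4 called genes with the smallest p of each list (at least 1 CPM in the higher genotype), and the 4 genes nearest to Myog in profile, except that 1 gene is not reported here. Lists covered PAX, sine oculis and EYA genes, progenitor factors, partners, inhibitors, fusion genes, muscle products and 11 marker sets.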

Additional observations from a re-analysis of the deposited data

How the results depend on the processing

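Apart from Mef2c, the tested members kept their direction and their call under every alternative in which they passed the filter. Mef2c alone turned, to -0.0053 (log2) under offsets for length and GC content that use summed exonic bases, and the cause was not tested beyond exchanging the length. That exchange, chosen after seeing the data, gave 0.85 for Mef2c, and with it 1 skeletal muscle product was called lower, against none otherwise. A filter of 1 CPM left Pax7 and Myf5 out, and 6 of 6 remaining members were called higher. Upper quartile scaling moved the median of all genes to -0.12 (log2). Leaving out 1 library gave Pax3 3.23 to 3.49, Myog 1.43 to 1.57 and Myf5 2.81 to 6.97 (log2). The 1.5-fold bound gave 6855 calls over all genes against 13613. Replicate numbers did not pair the samples: deviations of same-numbered libraries correlated at -0.0095 to 0.0135 over genes, and K68R replicate 1 correlated best with WT replicate 3. With a replicate block 8 members were called higher and 13567 genes were called in all. Depth limits Myf6, Myf5 and Pax7, whose WT totals were 1, 5 and 0 counts.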
